A study of Mus musculus with 9 samples.

Results

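The complement system and the clotting and fibrinolysis system were examined as 39 genes of the 21959 in a colon RNA sequencing count table, 21 of them complement genes and 18 of them clotting or fibrinolysis genes. Members were taken by gene symbol from a list of complement components, regulators and receptors and a list of clotting factors, plasminogen activators, protease inhibitors and anticoagulants. All 39 were in the table and all 39 passed the filter on low counts that left 14921 genes for testing. The lists are described separately throughout.

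Complement is a set of plasma and tissue proteins that mark microbes and damaged cells and recruit leukocytes. Recognition proteins (C1q with its proteases C1r and C1s, and the lectin pathway proteases) lead to cleavage of C4, C2 and C3, the fragments of C3 and C5 act on receptors of myeloid cells, and C5b to C9 assemble into a pore, while regulators such as CD55, CD59 and the C1 inhibitor limit damage to host cells. Clotting starts when tissue factor meets factor VII, runs through factors X and V to thrombin and fibrin, and is held back by tissue factor pathway inhibitor, thrombomodulin and protein S. Plasminogen activators start the breakdown of fibrin, and serpins inhibit them. The liver makes most of the circulating proteins of both systems, but macrophages, fibroblasts, endothelium and epithelium make several of them locally, and both systems are active in the inflamed gut.

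Poly-A RNA was sequenced from the colon of wild-type (WT) mice in 3 groups of 3 libraries. Blank mice had no treatment, Model mice were given DSS (dextran sulfate sodium, a polymer that injures the colon lining and is used to model ulcerative colitis), and CDs mice were given DSS and carbon dots (nanometre-sized carbon particles) made from lotus node charcoal. All groups share the WT genotype, and the series description calls the replicates biological. The sources used here do not give strain, age, sex, doses or the time of collection, and no group received carbon dots without DSS.

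Libraries held 13868864 to 19940300 counted reads. Levels are given as CPM (read counts scaled to the library size, with TMM factors), and the detection limit for a gene without a read was 0.142 to 0.221 CPM on this scale, depending on the library (3 reads, counting error only). Colon epithelium markers summed to 7451 to 22177 CPM in every library. Several libraries carried transcripts of other organs. The prostate genes Tgm4 and Pbsn were at 602.5 and 895 CPM in Blank 2 and at 56.4 and 113 CPM in Blank 3. In Blank 1 they were at 2.19 and 0 CPM. Of the other prostate markers listed, Spink1 was at 81.3 to 119 CPM in Blank, 160 to 248 in Model and 148 to 286 in CDs. Sbp had no read in any library. A set of 6 acinar pancreas markers together reached 42724 CPM in Model 3, were also present in Model 1 (Pnlip at 1278 CPM) and CDs 1 (Pnlip at 20.7 CPM), and had no read in Model 2. Results are therefore given also without the prostate-bearing libraries, which leaves Blank 1 alone, and without the pancreas-bearing libraries, which leaves Model 2 alone. Both fits take the spread of the lone library from the other groups.

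In the DSS-treated colon 18 of 21 complement members rose, none fell and 3 did not pass the test. A gene is called changed at an adjusted p under 0.05 in edgeR's quasi-likelihood test, with p-values adjusted by Benjamini and Hochberg over all genes tested. Of all genes tested, 24.5% were called higher and 19.6% lower. The filter on low counts asks for reads in as many libraries as a group holds, in whichever group. C2, C6, Cfi and Vsig4 were low in Blank and needed DSS-treated libraries to pass it. A fall could hardly have been called for them, and C6 and Vsig4 are among the 18 that rose. The median log2 fold change of the complement members was 2.0, beside -0.027 over all genes. The Model and Blank libraries did not overlap, with Model higher, for 19 of 21 members, against 30.0% of all genes. Without the prostate-bearing libraries, in a fit that called 7.88% of all genes higher, 15 complement members were called higher and their median was 1.78. C6, Cd59a and Vsig4 were not called there, at log2 fold changes of 2.44, 1.29 and 3.26 beside 3.53, 1.28 and 3.37 with all libraries. Without the pancreas-bearing libraries 19 were called higher (Cfi as well), beside 23.5% of all genes. In bulk tissue, more cells of a type and more RNA per cell cannot be told apart.

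The classical recognition genes lie in compact clusters. C1qa, C1qb and C1qc, the chains of C1q, are neighbours on chromosome 4 (from 136607440 to 136626114 as deposited), and C1ra and C1s1, its proteases, are 6901 bases apart on chromosome 6. Genome positions are those of the deposited table, and the sources used here do not give its build. Promoter sequences come from RefSeq on GRCm38.p6 and are not to be set against those positions. Windows of 250 bases before the start of transcription are shown for a recognition gene (C1qb), for C3 (the complement member with the highest fold change) and for a pore component (C7), all called higher in Model. Capitals mark matches, on either strand, to 5 motifs searched: AP-1 (TGANTCA), STAT (TTCNNNGAA), C/EBP (TTGCNNCAA), PU.1 (GAGGAA) and NF-kB (GGANTTTCC). No matches overlapped in the windows shown. The C1qb window is chr4:136886201-136886450 (minus strand), that of C3 is chr17:57228137-57228386 (minus strand) and that of C7 is chr15:5063774-5064023 (minus strand).
C1qb: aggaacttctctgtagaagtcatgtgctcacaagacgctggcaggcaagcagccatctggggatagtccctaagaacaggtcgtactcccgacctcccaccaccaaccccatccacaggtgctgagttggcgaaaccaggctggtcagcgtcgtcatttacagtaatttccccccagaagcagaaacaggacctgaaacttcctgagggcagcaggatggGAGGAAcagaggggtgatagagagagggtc
C3: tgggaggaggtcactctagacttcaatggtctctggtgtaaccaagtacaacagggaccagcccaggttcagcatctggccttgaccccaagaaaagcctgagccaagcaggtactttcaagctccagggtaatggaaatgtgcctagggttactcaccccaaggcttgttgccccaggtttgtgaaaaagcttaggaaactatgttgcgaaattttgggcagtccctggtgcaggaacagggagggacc
C7: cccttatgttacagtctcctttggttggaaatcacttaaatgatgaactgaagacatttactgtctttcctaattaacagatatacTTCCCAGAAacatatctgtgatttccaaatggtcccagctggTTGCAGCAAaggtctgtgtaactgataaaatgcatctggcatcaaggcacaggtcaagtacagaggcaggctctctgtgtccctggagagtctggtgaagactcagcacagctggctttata

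The C1qb window held 1 PU.1 match, the C7 window held 1 STAT and 1 C/EBP match, and the C3 window held none of the 5. RefSeq windows were matched for 27 of the 39 members (34 windows). The PU.1 letters were in 10 of these 34 windows and in 23.3% of all 32851 windows of the same length, the STAT letters in 3 of 34 and 7.02%, the C/EBP letters in 2 of 34 (C6 and C7) and 1.74%, and the NF-kB letters in 3 of 34 (F3, F13a1 and Tfpi2, none of them shown) and 1.07%. A longer NF-kB form with 1 further G at its 5′ end, searched first, was in 0 of 34 and 0.356%, and the shorter form was taken after that result was seen. A match is a description of letters only.

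All 6 recognition members rose, within a narrow range of log2 fold changes from 1.55 to 2.04. The C1q chains moved by nearly equal amounts, with log2 fold changes of 1.93 ± 0.19 for C1qa, 1.92 ± 0.21 for C1qb and 2.0 ± 0.18 for C1qc (SE; the largest of the 3 adjusted p-values was 3.73e-04). C1qa ranged over 42.0 to 62.8 CPM in Blank, 156 to 217 in Model and 159.8 to 208 in CDs. The level per length of the most abundant chain over the least abundant stayed between 2.17 and 2.40 in all 9 libraries. C1ra stood at 52.1, 42.0 and 35.6 CPM in Blank, 129, 222 and 184 CPM in Model and 199, 165 and 117 CPM in CDs. Every DSS-treated library thus lay above every Blank library for C1ra, a log2 fold change of 2.04 ± 0.26 (SE; adjusted p = 6.05e-04). C1s1 rose with a log2 fold change of 1.66 ± 0.19 (SE; adjusted p = 4.48e-04). Masp1, a protease of the lectin pathway, ranged over 4.18 to 8.71 CPM in Blank, 14.2 to 21.0 in Model and 13 to 16.2 in CDs, a log2 fold change of 1.55 ± 0.26 (SE; adjusted p = 0.00226). Masp1 overlaps Rtp4 on the other strand by 525 bases, and C1ra and C1s1 have near-identical copies (C1rb and C1s2) to which reads could be assigned, so these 3 are uncertain.

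Of the 7 components, 5 rose. C3, on which all activation routes converge, stood at 120.5, 93.4 and 123 CPM in Blank, 905, 2043 and 1459 CPM in Model and 1473, 1296 and 972 CPM in CDs. Each DSS-treated library was far above each Blank library, and C3 rose 13.1-fold, a log2 fold change of 3.71 ± 0.32 (SE; adjusted p = 2.46e-04). C4b, the component cleaved by C1s, was at 88.8, 89.9 and 64.9 CPM in Blank, 356, 449.9 and 512 CPM in Model and 505, 386 and 283 CPM in CDs. The groups did not overlap, with a log2 fold change of 2.44 ± 0.25 (SE; adjusted p = 3.18e-04). C4b has a near-identical copy, C4a, that was not analysed here. Cfp encodes properdin, which stabilises the alternative pathway convertase, and was at 11.1, 10.4 and 8.34 CPM in Blank, 38.0, 57.3 and 56.7 CPM in Model and 65.6, 45.8 and 41.0 CPM in CDs. Its Model and CDs libraries covered overlapping ranges, both above Blank, with a log2 fold change of 2.35 ± 0.23 (SE; adjusted p = 3.04e-04) in Model.

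C6 and C7, 2 components of the membrane pore, lie 173794 bases apart on chromosome 15. C6 was at 1.54, 0.206 and 0.369 CPM in Blank, 4.36, 9.92 and 10.9 CPM in Model and 12.6, 4.25 and 2.79 CPM in CDs. Blank 1 was the highest Blank library for C6, at a level still below every DSS-treated library, and the Blank values rest on 24, 3 and 5 reads. It rose by a log2 fold change of 3.53 ± 0.80 (SE; adjusted p = 0.00790), which was 4.85 without Blank 1. C7 was at 1.35, 7.75 and 6.35 CPM in Blank, 21.7, 32.9 and 24.5 CPM in Model and 31.5, 37.7 and 21.5 CPM in CDs, with Blank 1 the lowest library. It rose by a log2 fold change of 2.37 ± 0.50 (SE; adjusted p = 0.00594).

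The 2 components that did not pass the test sit side by side on chromosome 17, 85 bases apart. Cfb, the alternative pathway protease, ranged over 4.05 to 5.40 CPM in Blank, 2.41 to 4.43 in Model and 2.65 to 3.11 in CDs, with a log2 fold change of -0.43 ± 0.25 (SE; adjusted p = 0.192). C2, the classical pathway protease, ranged over 0.443 to 0.836 CPM in Blank, 1.09 to 1.47 in Model and 1.10 to 2.63 in CDs, with a log2 fold change of 0.95 ± 0.41 (SE; adjusted p = 0.0908). It passed in 1 fit only among those leaving out a library, without CDs 3, at an adjusted p of 0.0472. C2 had 6 to 44 reads in a library and overlaps Zbtb12 on the other strand over 17385 bases. Both genes also overlap Gm20547 on their own strand, C2 over 19439 bases and Cfb over 6107. Gm20547 had 0 reads over all libraries. The sources used here do not say how reads in shared bases were counted, so the levels of Cfb and C2 are uncertain. With that limit, Cfb was the only complement member with a fold change under 0 in Model.

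Among the 4 regulators, 3 rose. Serping1, the C1 inhibitor, was at 106, 101 and 97.6 CPM in Blank, 288, 535 and 398 CPM in Model and 365, 332 and 255 CPM in CDs. Model 2 was the highest library and the groups did not overlap, with a log2 fold change of 2.0 ± 0.23 (SE; adjusted p = 4.28e-04). Cd55, which dissociates C3 convertases, rose with a log2 fold change of 1.18 ± 0.16 (SE; adjusted p = 8.09e-04) and Cd59a, which blocks the pore, with a log2 fold change of 1.28 ± 0.20 (SE; adjusted p = 0.00165). Cd59a has a related copy, Cd59b, which had 3 to 22 reads in a library. Cfi, the protease that inactivates C3b and C4b, had 2 to 27 reads in a library and a log2 fold change of 1.73 ± 0.64 (SE; adjusted p = 0.0531), and it passed without Model 1 (adjusted p = 0.0185) and without the pancreas-bearing libraries (adjusted p = 0.0171).

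All 4 receptors rose. C5ar1, the main C5a receptor, was at 8.42, 8.37 and 7.82 CPM in Blank, 36.0, 67.4 and 53.5 CPM in Model and 58.2, 44.1 and 38.7 CPM in CDs. The Blank libraries lay within 1 CPM of each other and every DSS-treated library was higher, with a log2 fold change of 2.67 ± 0.24 (SE; adjusted p = 2.69e-04). C5ar2, the second C5a receptor, which lies 2588 bases away, was at 1.16, 1.23 and 1.18 CPM in Blank, 4.87, 5.08 and 8.58 CPM in Model and 8.38, 4.78 and 5.07 CPM in CDs. Model 3 and CDs 1 were its highest libraries, and it rose by a log2 fold change of 2.36 ± 0.33 (SE; adjusted p = 9.31e-04). C3ar1, the C3a receptor, rose with a log2 fold change of 1.36 ± 0.18 (SE; adjusted p = 6.63e-04). Vsig4, a receptor of tissue macrophages for C3b and iC3b, was at 0.321, 0.206 and 0.369 CPM in Blank, 1.02, 6.36 and 1.88 CPM in Model and 1.28, 3.23 and 2.35 CPM in CDs. The Blank values of Vsig4 rest on 5, 3 and 5 reads. Model 2 stood above the other Model libraries for Vsig4, and its log2 fold change of 3.37 ± 0.77 (SE; adjusted p = 0.00843) was 2.25 without it (adjusted p = 0.0181).

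**Figure D1:**
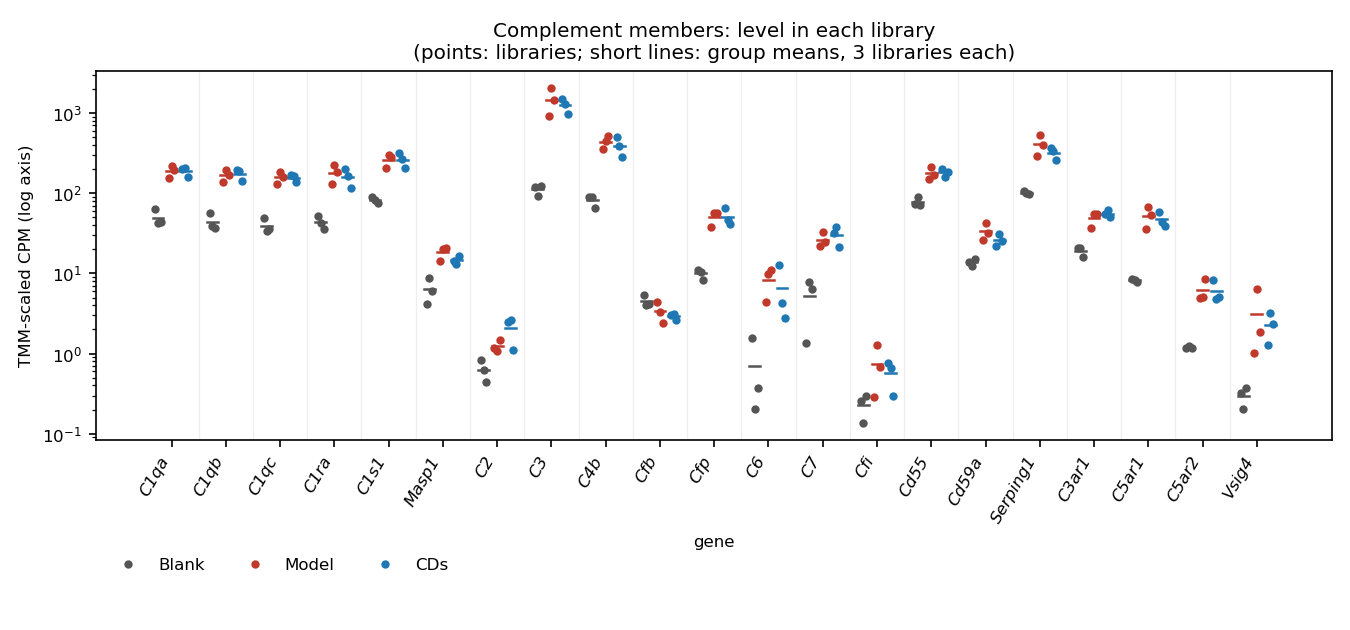
Level of each complement member in each library (log axis, TMM-scaled CPM; points are libraries, short lines are group means, 3 libraries a group). The Model points lie above the Blank points for 19 of 21 members, and those of Cfb and Cfi overlap with Blank.

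Cell type markers moved beside these genes. Of macrophage markers, 7 of 7 rose in Model (summed level 160.4 to 176 CPM in Blank, 613 to 1008 in Model and 561 to 779 in CDs). Of neutrophil markers, 6 of 6 rose (6.05 to 8.23, 225 to 2130 and 316 to 898 CPM), and Model 2 had the highest sum for both lists. Among macrophage markers Mrc1, Cd163 and Cd68 were highest in Model 2, and Fcgr1 in Model 3. Adgre1, Csf1r and Timd4 were lower in Model 2 than in every other DSS-treated library. Csf3r was highest in CDs 1, and the other neutrophil markers in Model 2. Of fibroblast markers, 6 of 6 rose (975 to 1130 CPM, 2859 to 7044 and 3043 to 3591), and of colon epithelium markers 3 of 8 fell and none rose.  The part of these shifts in the rise of complement members was not tested. Of 6 hepatocyte markers 3 passed the filter, 2 fell (Alb and Ttr) and Tat was not called (50 to 66.4, 36.8 to 61.7 and 63.1 to 89.6 CPM summed, mostly Ttr and Tat). Albumin (Alb), which defines the type, was at 0.147 to 2.26 CPM and lower in each DSS-treated library than in each Blank library, and Ahsg and Apoh stayed under 0.5 CPM in every library.

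A further 31 complement genes were listed, of which C4a was not analysed here, and 22 of the 30 in the table passed the filter. Of these 22, 12 rose and 1 fell in Model, beside 24.5% called higher and 19.6% lower over all genes. High log2 fold changes among the called genes were those of Itgam (2.94 ± 0.36, adjusted p = 5.68e-04), a chain of complement receptor 3 on myeloid cells, and Cfd (2.75 ± 0.71, adjusted p = 0.0142), the protease that activates factor B. Cfd stood at 2.83, 4.8 and 16.8 CPM in Blank, 61.4, 29.6 and 72.9 CPM in Model and 18.5, 25.2 and 6.32 CPM in CDs, and its CDs libraries lay below its Model libraries. Its highest libraries, Model 1 and Model 3, are pancreas-bearing, and Model 2 was near CDs 2. CDs 1, also pancreas-bearing, lay below CDs 2. The part of other tissue in the Cfd levels was not tested. The lowest among the called genes were Cr2 (1.5 ± 0.53, adjusted p = 0.0468), C1rl (1.57 ± 0.28, adjusted p = 0.00282) and C1rb (-4.59 ± 1.43, adjusted p = 0.0295). C1rb was the only one called lower, and it was at 0.0643, 44.2 and 6.05 CPM in Blank, high only in the prostate-bearing Blank 2 and Blank 3, and at 0.508, 0.902 and 0.603 CPM in Model. Without those libraries 7 of these outside genes were called, all higher. Of the pore components outside the members, Hc (C5), C8a, C8b and C9 did not pass the filter: Hc was at 0.480 to 1.84 CPM in Blank and 0.134 to 0.190 CPM in Model, and C9 at 0.0686 to 0.221 and 0 to 0.0950 CPM. These 4 were chosen for naming after their values were seen.

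Of the clotting and fibrinolysis members, 15 of 18 rose in Model, none fell and 3 did not pass the test. The share of all genes called higher was 24.5%. F7, F10, A2m and Serpinb2 were low in Blank and passed the filter through DSS-treated libraries. A fall could hardly have been called for them, and all are among the 15 that rose. Their median log2 fold change was 2.16, and the groups did not overlap, with Model higher, for 15 of 18, against 30.0% of all genes. Without the prostate-bearing libraries 9 were called higher, beside 7.88% of all genes, and the median was 2.18. The 6 not called there were F7, Plat, Plau, Plaur, A2m and Thbd, at log2 fold changes of 2.58, 2.60, 1.56, 2.15, 4.62 and 1.17, beside 3.46, 2.49, 1.45, 2.53, 5.50 and 1.09 with all libraries. Without the pancreas-bearing libraries, which leaves Model 2 as the whole Model group, the median was 2.20. Promoter windows are shown for the neighbouring factor genes F7 and F10, which lie 1498 bases apart on chromosome 8, and for Plaur and Serpinb2, 2 fibrinolysis genes whose windows hold AP-1 letters. Capitals mark the same 5 motifs. On GRCm38.p6 the windows are chr8:13025784-13026033 (plus strand) for F7, chr8:13037058-13037307 (plus strand) for F10, chr7:24462233-24462482 (plus strand) for Plaur and chr1:107511173-107511422 (plus strand) for Serpinb2.
F7: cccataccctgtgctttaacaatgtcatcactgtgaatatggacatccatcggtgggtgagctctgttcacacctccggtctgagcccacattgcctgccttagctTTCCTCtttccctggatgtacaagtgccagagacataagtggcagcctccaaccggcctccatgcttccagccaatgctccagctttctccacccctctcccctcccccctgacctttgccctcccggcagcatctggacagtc
F10: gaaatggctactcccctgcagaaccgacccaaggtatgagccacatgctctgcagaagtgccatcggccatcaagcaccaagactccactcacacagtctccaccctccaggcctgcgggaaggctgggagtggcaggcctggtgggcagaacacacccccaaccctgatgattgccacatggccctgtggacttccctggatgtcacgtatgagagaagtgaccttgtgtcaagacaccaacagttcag
Plaur: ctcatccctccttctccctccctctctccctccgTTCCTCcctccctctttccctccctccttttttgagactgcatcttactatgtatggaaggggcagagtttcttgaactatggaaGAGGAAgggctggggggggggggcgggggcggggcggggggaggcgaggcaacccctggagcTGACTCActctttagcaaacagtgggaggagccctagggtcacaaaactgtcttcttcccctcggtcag
Serpinb2: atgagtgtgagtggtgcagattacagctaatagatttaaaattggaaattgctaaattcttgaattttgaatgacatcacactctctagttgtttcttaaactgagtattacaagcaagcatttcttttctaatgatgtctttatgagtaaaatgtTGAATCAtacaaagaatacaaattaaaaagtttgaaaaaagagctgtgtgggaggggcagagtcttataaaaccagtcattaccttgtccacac

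The AP-1 letters were in 8 of the 34 member windows, of 7 genes (C3ar1, F2r, F3, Plaur, Procr, Serpinb2 and Tfpi2) and in 6.75% of all windows of this length. Those 7 genes include 3 that did not pass the test in Model (F3, Procr and Tfpi2) and 4 that rose. F7 held 1 PU.1 match, Plaur held 2 PU.1 matches and 1 AP-1 match, Serpinb2 held 1 AP-1 match and F10 held none.

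Tissue factor did not pass the test, while 5 of the 6 genes in the group of tissue factor and clotting factors rose. F3, tissue factor, ranged over 77.2 to 81.4 CPM in Blank, 72.2 to 116 in Model and 80.7 to 91.0 in CDs, with a log2 fold change of 0.18 ± 0.16 (SE; adjusted p = 0.372), and it was -0.037 without Model 2 and 0.53 without the pancreas-bearing libraries (adjusted p = 0.00682). F7, the factor that tissue factor binds, had 4, 2 and 0 reads in Blank, 9, 59 and 17 in Model and 20, 34 and 14 in CDs. In CPM these were 0.257, 0.137 and 0 CPM in Blank, 0.654, 2.80 and 1.14 CPM in Model and 1.28, 2.03 and 1.03 CPM in CDs. Model 2 was the highest and the groups did not overlap. Its log2 fold change of 3.46 ± 0.81 (SE; adjusted p = 0.00925) was 4.33 without Blank 1 and 2.65 without Model 2, still called in both.

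F10, factor X, was at 0.386, 0.206 and 0.221 CPM in Blank, 4.79, 12.7 and 10.1 CPM in Model and 18.1, 10.8 and 9.34 CPM in CDs. All 6 DSS-treated libraries were above 4 CPM and all Blank libraries under 0.4 CPM. F10 rose 32.9-fold, a log2 fold change of 5.04 ± 0.53 (SE; adjusted p = 3.38e-04), from 3 to 6 reads in a Blank library to 66 to 268 in a Model library. F5, the cofactor of factor X, was at 1.41, 1.85 and 1.70 CPM in Blank, 11.6, 8.31 and 21.9 CPM in Model and 18.6, 10.9 and 14.9 CPM in CDs. Model 3 was its highest library, and it rose by a log2 fold change of 3.07 ± 0.40 (SE; adjusted p = 6.60e-04). F13a1, the transglutaminase subunit that cross-links fibrin and is abundant in macrophages and platelets, was at 7.91, 30.1 and 27.1 CPM in Blank, 78.6, 201 and 110.3 CPM in Model and 119, 141 and 113 CPM in CDs. Blank 1 was the lowest library, and the group difference was a log2 fold change of 2.59 ± 0.49 (SE; adjusted p = 0.00364).

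Vwf, the endothelial and platelet adhesion protein, was at 29.9, 30.3 and 28.0 CPM in Blank, 76.5, 99.8 and 95.2 CPM in Model and 71.5, 79.2 and 65.6 CPM in CDs. Its libraries varied little within groups, and it had the smallest adjusted p of the 39 members, a log2 fold change of 1.62 ± 0.12 (SE; adjusted p = 1.76e-04). F2r, the thrombin receptor PAR1, rose with a log2 fold change of 0.99 ± 0.12 (SE; adjusted p = 4.67e-04). Endothelium markers rose beside Vwf in Model (6 of 6, 180 to 186 CPM summed in Blank, 393 to 548 in Model and 374 to 488 in CDs). Of 6 platelet markers 3 passed the filter and all 3 rose (12.2 to 15.6, 28.2 to 103 and 28.0 to 36.9 CPM summed over the 6), and Gp1bb had no read in any library. Their part in these results was not tested.

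The plasminogen activators and their receptor all rose. Plat, tissue plasminogen activator, was at 12, 13.3 and 13.5 CPM in Blank, 32.6, 130.0 and 54.4 CPM in Model and 66.5, 47.8 and 33.2 CPM in CDs. Model 2 was the highest library. The log2 fold change of 2.49 ± 0.48 (SE; adjusted p = 0.00378) was 1.75 without it. Plaur, the urokinase receptor, was at 10.7, 5.62 and 8.12 CPM in Blank, 30.0, 65.6 and 45.8 CPM in Model and 61.0, 26.7 and 31.0 CPM in CDs. Model 2 and CDs 1 were its highest libraries and all DSS-treated libraries lay above Blank, with a log2 fold change of 2.53 ± 0.41 (SE; adjusted p = 0.00175). Plau, urokinase, ranged over 32.8 to 37.3 CPM in Blank, 57.8 to 125 in Model and 59.3 to 92.7 in CDs, with a log2 fold change of 1.45 ± 0.27 (SE; adjusted p = 0.00325).

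The largest rises among clotting members included the protease inhibitors. Serpine2, protease nexin 1, an inhibitor of thrombin and plasminogen activators made by fibroblasts among other cells, was at 11.8, 25.0 and 18.2 CPM in Blank, 68.8, 370.2 and 173 CPM in Model and 49.8, 44.7 and 48.2 CPM in CDs. Model 2 was far above the other libraries, and each CDs library was below each Model library. Against Blank, Model had a log2 fold change of 3.47 ± 0.55 (SE; adjusted p = 0.00166), and 2.72 without Model 2. A2m, a broad protease inhibitor, had 6, 3 and 0 reads in Blank and 38, 351 and 138 in Model. Its levels were 0.386, 0.206 and 0 CPM in Blank, 2.76, 16.7 and 9.25 CPM in Model and 3.26, 1.49 and 3.16 CPM in CDs, again with Model 2 the highest. The log2 fold change of 5.50 ± 0.88 (SE; adjusted p = 0.00166) rests on 9 Blank reads, and it was 6.41 without Blank 1 and 4.83 without Model 2. Serpinb2, PAI-2, had 1, 6 and 2 reads in Blank, and was at 0.0643, 0.412 and 0.148 CPM in Blank, 2.61, 1.38 and 2.61 CPM in Model and 3.33, 3.65 and 1.54 CPM in CDs. Every DSS-treated library was above 1 CPM for Serpinb2, a log2 fold change of 3.35 ± 0.61 (SE; adjusted p = 0.00302) that was 4.30 without Blank 2. Serpinb2 overlaps Serpinb10 on the same strand, a gene with 97 reads over all libraries.

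Among the 5 anticoagulants, 3 rose and their fold changes spanned -0.60 to 1.84 on the log2 scale. Pros1, protein S, rose with a log2 fold change of 1.84 ± 0.22 (SE; adjusted p = 4.67e-04), Tfpi, tissue factor pathway inhibitor, with a log2 fold change of 1.26 ± 0.20 (SE; adjusted p = 0.00175) and Thbd, thrombomodulin, with a log2 fold change of 1.09 ± 0.19 (SE; adjusted p = 0.00273). Procr, the endothelial protein C receptor, ranged over 16.2 to 21.0 CPM in Blank, 15.1 to 25.1 in Model and 16.3 to 22.6 in CDs, a log2 fold change of 0.11 ± 0.20 (SE; adjusted p = 0.675). Tfpi2, a Kunitz inhibitor related to Tfpi, had the lowest fold change of the 18, a log2 fold change of -0.60 ± 0.29 (SE; adjusted p = 0.116), over 6.17 to 8.19 CPM in Blank, 3.35 to 6.36 in Model and 2.88 to 4.93 in CDs. Without Model 2, Tfpi2 was called lower (-0.92, adjusted p = 0.0429).

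**Figure D2:**
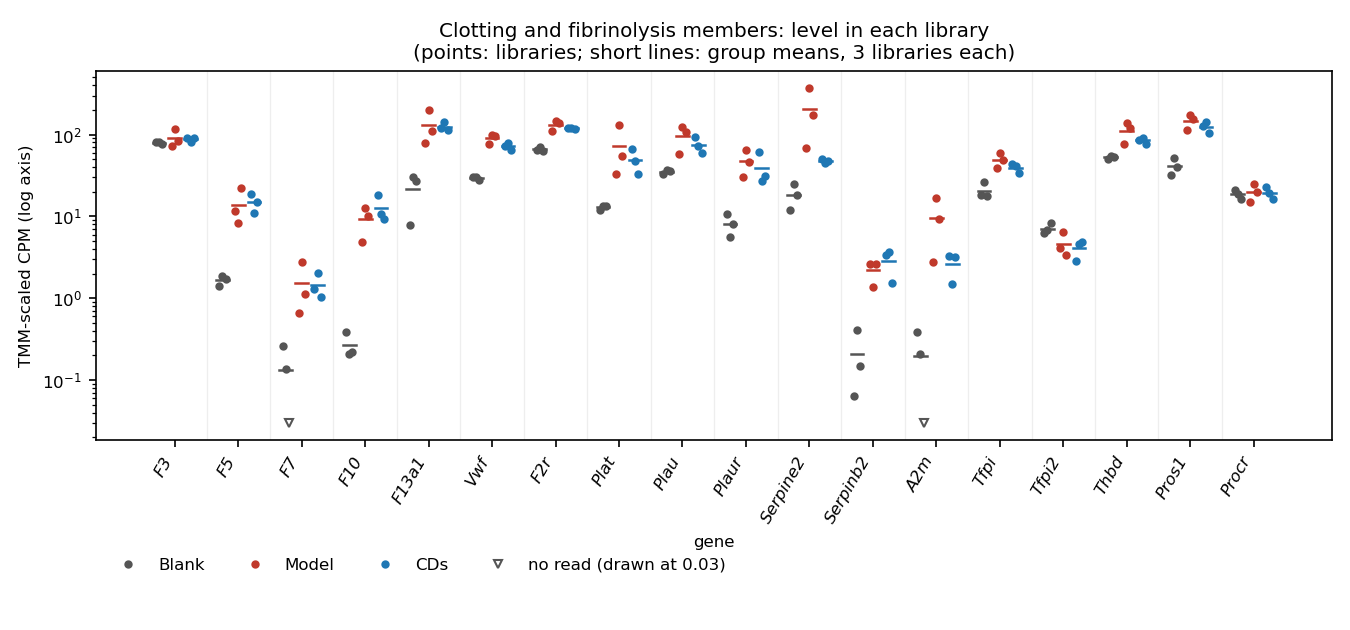
Level of each clotting and fibrinolysis member in each library (log axis, TMM-scaled CPM; points are libraries, short lines are group means, open triangles are libraries with no read). Model 2 is the highest Model point for Serpine2, A2m, Plat and F7, and the 3 CDs points of Serpine2 lie at 44.7 to 49.8 CPM, below all Model points.

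Of 37 other clotting and fibrinolysis genes, all in the table, 22 passed the filter. In Model 10 rose and 1 fell, beside 24.5% called higher and 19.6% lower over all genes. High fold changes among called genes were those of Kng2 and Bdkrb1. Kng2, a kininogen gene, had 0, 0 and 2 reads in Blank and 24, 110 and 49 in Model (adjusted p = 8.03e-04). Bdkrb1, a bradykinin receptor, had a log2 fold change of 4.74 ± 0.59 (SE; adjusted p = 5.68e-04). The lowest among called genes were Plgrkt, a plasminogen receptor (-0.85 ± 0.18, adjusted p = 0.00608), Anxa2 (0.47 ± 0.15, adjusted p = 0.0304) and Mcfd2 (0.51 ± 0.12, adjusted p = 0.00916), of which only Plgrkt was lower in Model. Without the prostate-bearing libraries 4 of these outside genes were called, all higher.

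The second comparison asked whether carbon dots changed these levels in DSS-treated colon. No member was called in CDs against Model, and neither was any of the 14921 genes (0.0%). The smallest adjusted p over all genes was 0.891 by edgeR, with 788 genes (5.28%) at an unadjusted p under 0.05, and DESeq2 called 50. None of the 21 complement members had an unadjusted p under 0.05, and no complement member had groups that did not overlap, beside 7.99% of all genes. The median log2 fold change of the complement members was -0.15, and 15 of 21 were under 0 (71.4%, beside 44.8% of all genes). This median changed sign when 1 library was left out: it was 0.086 without Model 2 and 0.025 without CDs 3.

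For 16 of 21 complement members the 95% interval of the CDs against Model difference lay within 1 log2 unit of 0 (76.2%, beside 77.5% of all genes). The interval ran from -0.43 to 0.42 for C1qa, -0.39 to 0.37 for C1qc and -0.32 to 0.39 for Cd55. For C3 the log2 fold change was -0.24 ± 0.29 with an interval of -0.89 to 0.41, and for Serping1 it was -0.36 ± 0.22 with -0.85 to 0.14. The 5 members with wider reach were C2, C6, C7, Cfi and Vsig4. C2 had the highest fold change, 0.75 ± 0.37 (unadjusted p = 0.0750), with an interval of -0.09 to 1.60, and Vsig4 the lowest, -0.46 ± 0.61, with -1.84 to 0.93.

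Of the 18 clotting members, 3 had an unadjusted p under 0.05 in CDs against Model, all lower, beside 3.75% of all genes at that threshold and lower. None passed after adjustment. Serpine2 had a log2 fold change of -2.10 ± 0.52 (unadjusted p = 0.00294, adjusted p = 0.891, 95% interval -3.28 to -0.93). It was the 1 member whose CDs and Model libraries did not overlap, beside 4.77% of all genes lower without overlap. By DESeq2, Serpine2 was called at an adjusted p of 0.0128. The difference was -1.34 without Model 2 (adjusted p = 1.0) and -2.99 without the pancreas-bearing libraries (adjusted p = 0.00354), where Model 2 is the whole Model group.

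A2m had a log2 fold change of -1.87 ± 0.65 in CDs against Model (unadjusted p = 0.0180, adjusted p = 0.911, 95% interval -3.34 to -0.40). Its lowest Model library, at 2.76 CPM, lay below 2 CDs libraries. It was -1.19 without Model 2 (unadjusted p = 0.0960), -1.58 without CDs 2 (unadjusted p = 0.0678) and -2.85 without the pancreas-bearing libraries (adjusted p = 0.0288). Vwf had a small difference, -0.33 ± 0.12 (unadjusted p = 0.0216, adjusted p = 0.927, 95% interval -0.60 to -0.06), and its groups overlapped, since CDs 2 was above Model 1. Its unadjusted p was 0.0844 without Model 2, 0.0745 without Model 3 and 0.0844 without CDs 3, at log2 fold changes of -0.25, -0.29 and -0.26, and it was 0.0507 in the fit of the 6 libraries compared. Fibroblast markers summed to 2859 to 7044 CPM in Model and 3043 to 3591 in CDs, with none of 6 called, and their part in the Serpine2 difference was not tested.

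The other 15 clotting members had log2 fold changes from -0.56 (Plat) to 0.46 (F10) in CDs against Model. The median over the 18 was -0.21, and 15 of 18 were under 0 (83.3%, beside 44.8% of all genes). Without Model 2 the median was 0.0024. For 10 of 18 the interval lay within 1 log2 unit of 0 (55.6%, beside 77.5% of all genes), among them F3 (-0.41 to 0.30), Procr (-0.52 to 0.41) and F2r (-0.40 to 0.11). The widest of the other 8 were those of A2m, F7 (-1.44 to 1.22) and Serpine2. Without the pancreas-bearing libraries, 2 complement members (Serping1 and C5ar1) and 6 clotting members (Serpine2, A2m, Plat, Plau, Plaur and Thbd) were called lower, in a fit that called 752 genes higher and 489 lower over the whole table and that sets CDs 2 and CDs 3 against Model 2 alone. Outside the members, with all libraries, Kng2 had a log2 fold change of -1.77 ± 0.52 (unadjusted p = 0.00820, adjusted p = 0.891). Cfd had one of -1.70 ± 0.67 (unadjusted p = 0.0325, adjusted p = 0.936) and Colec12 one of -0.50 ± 0.18 (unadjusted p = 0.0245, adjusted p = 0.936). C4bp was higher in CDs, at 1.32 ± 0.53 (unadjusted p = 0.0344, adjusted p = 0.936). Of the outside genes tested, 12 complement genes were over 0 and 10 under, and 11 clotting genes were over 0 and 11 under.

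**Figure D3:**
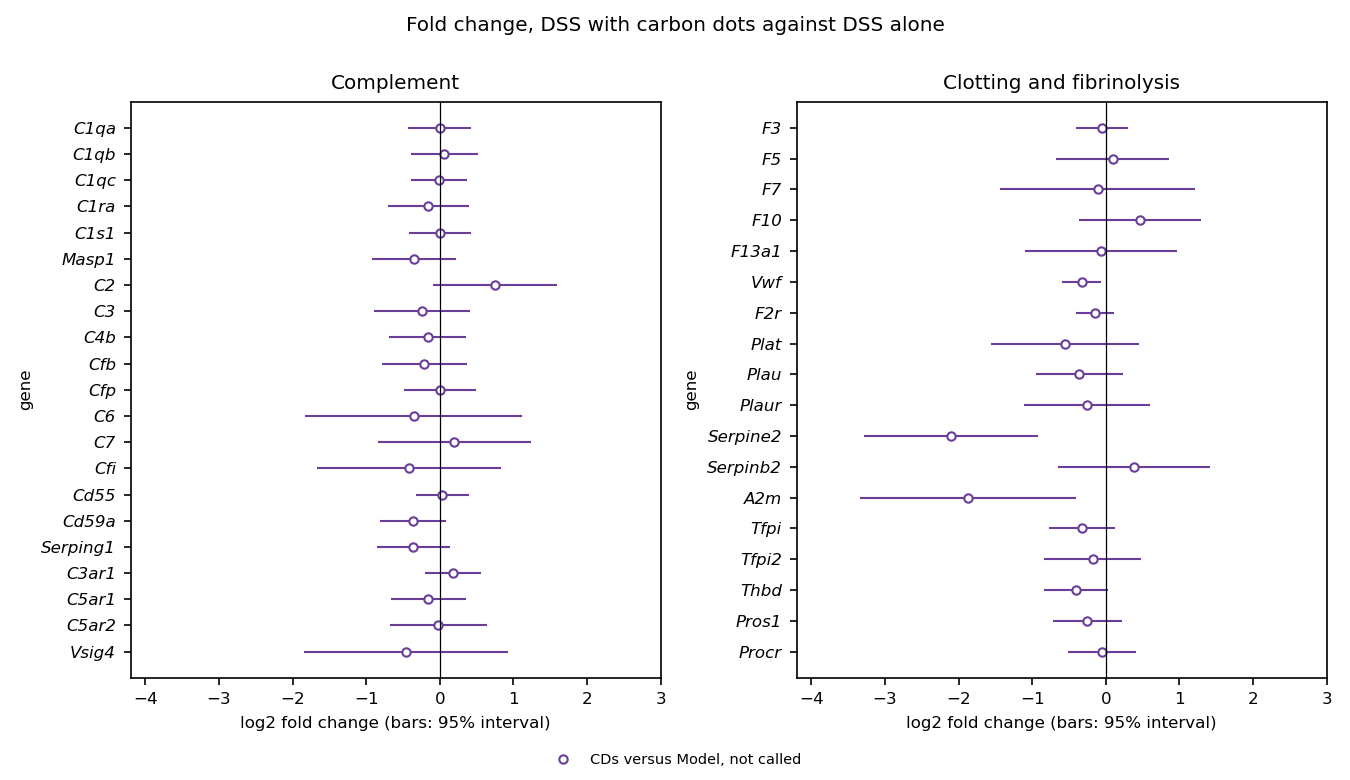
Log2 fold change of each member in CDs against Model, with 95% intervals (3 libraries a group, left complement, right clotting and fibrinolysis). No member was called. The intervals of Serpine2, A2m and Vwf lie below 0, and all others cross it.

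The third comparison set CDs against Blank, and it shares its Blank libraries with the first. The members' values are therefore given side by side. In CDs 19 of 21 complement members were higher than in Blank, beside 21.8% of all genes (13.8% lower), with a median log2 fold change of 1.93. These were the 18 called in Model and C2 (1.70 ± 0.40, adjusted p = 0.0120). C3 was at 3.47 ± 0.32 in CDs and 3.71 ± 0.32 in Model, C1qa at 1.93 ± 0.19 and 1.93 ± 0.19, C5ar1 at 2.52 ± 0.24 and 2.67 ± 0.24, and Serping1 at 1.64 ± 0.22 and 2.0 ± 0.23 on the log2 scale. Cfb was not called (-0.64 ± 0.25, adjusted p = 0.0792), though its 3 CDs libraries lay below its 3 Blank libraries, as for 25.9% of all genes, and Cfi was not called (1.31 ± 0.66, adjusted p = 0.149). Over all genes, leaving out Blank 2 took the called genes from 5309 to 3398.

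Of the clotting members 14 of 18 were higher in CDs than in Blank, beside 21.8% of all genes, with a median log2 fold change of 1.48. F10 was at 5.50 ± 0.53 in CDs and 5.04 ± 0.53 in Model, F5 at 3.16 ± 0.40 and 3.07 ± 0.40, and Serpinb2 at 3.74 ± 0.60 and 3.35 ± 0.61. Serpine2 was at 1.37 ± 0.52 in CDs (adjusted p = 0.0684) and 3.47 ± 0.55 in Model. It was called against Blank by DESeq2 (adjusted p = 0.0184), in the fit of the 6 libraries compared (0.00610), and without Model 1 (0.0138) or Model 2 (0.0208), and without the pancreas-bearing libraries (0.00565). Tfpi2 was at -0.78 ± 0.29 in CDs (adjusted p = 0.0644) and its CDs libraries lay below its Blank libraries. It was called lower by DESeq2 (adjusted p = 0.0328) and without Model 2 (adjusted p = 0.0406). F3 and Procr were not called.

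Several calls against Blank in CDs were lost in fits that left out 1 library, at fold changes that mostly stayed near those with all libraries. C6, at 3.17 with all libraries, was not called without Blank 2 (2.74, adjusted p = 0.0557) or Blank 3 (2.89, 0.0566), and it was 4.49 without Blank 1 and 2.28 without CDs 1. Vsig4 was not called without CDs 2 or without any 1 of the Blank libraries, with log2 fold changes of 2.57 to 3.08 beside 2.91 with all libraries (adjusted p = 0.0523 to 0.0722). Thbd was likewise not called in those 4 fits, at 0.63 to 0.73 beside 0.69 (adjusted p = 0.0611 to 0.0757). F7 and A2m were not called without Blank 2, at 3.35 and 3.64 (adjusted p = 0.0502 and 0.0548). Without Blank 1 the log2 fold changes of F7 and A2m were 4.22 and 4.53, and without Blank 2 that of Serpinb2 was 4.69, against 3.34, 3.63 and 3.74 with all libraries. Without the prostate-bearing libraries 11 complement and 4 clotting members were called higher in CDs than in Blank, beside 2.31% of all genes.

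**Figure D4:**
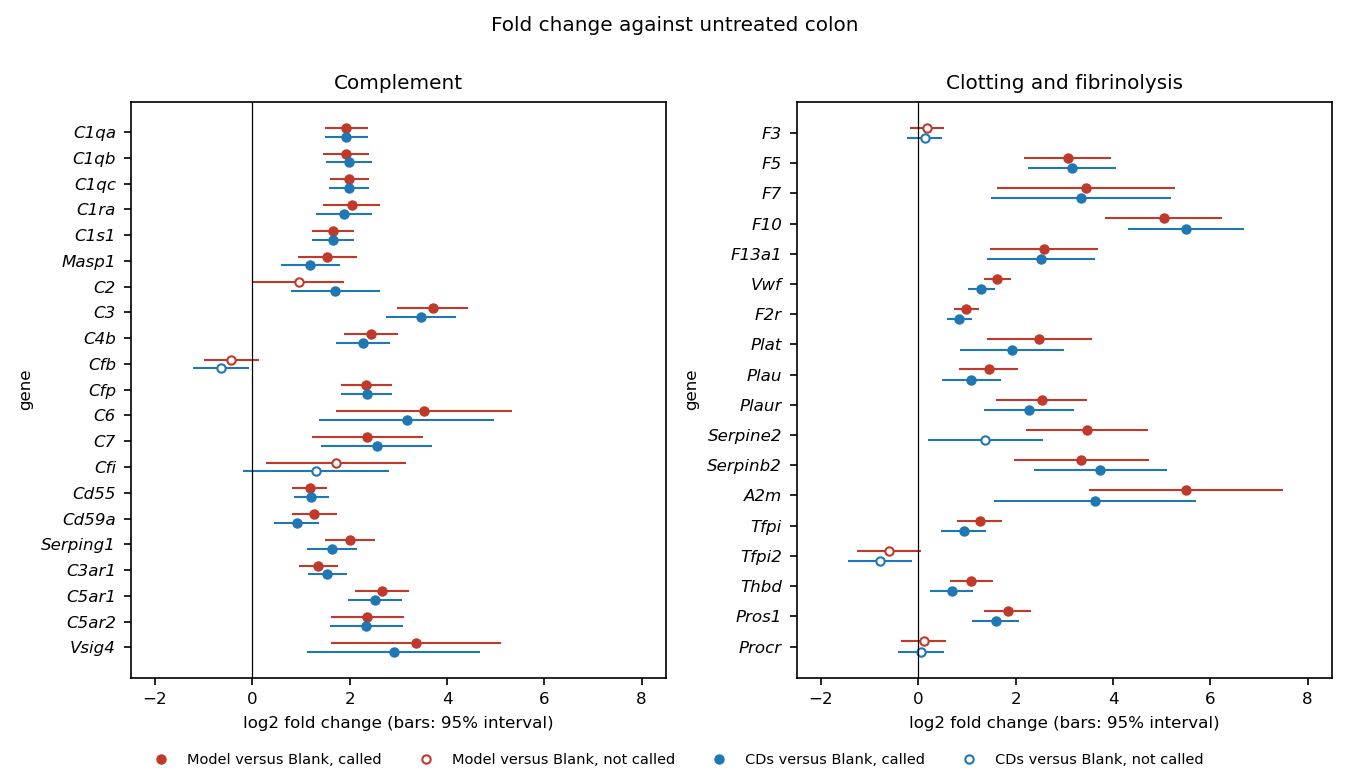
Log2 fold change of each member against Blank in Model (red) and in CDs (blue), with 95% intervals. Filled points are called at an adjusted p under 0.05, and open points are not. Both contrasts share the Blank libraries. Model and CDs points lie close together for most members, and the widest gaps are those of Serpine2 (3.47 and 1.37) and A2m (5.50 and 3.63).

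Levels between genes were compared per length, on the deposited FPKM scale (reads scaled to gene length and library total; mean ± SD, n = 3). In Blank the highest members were C1qa at 46.1 ± 10.7, Serping1 at 42.3 ± 1.52 and C1qb at 39.1 ± 9.82 FPKM, whose ranges overlapped, followed by F3 at 30.6 ± 0.627 and C1s1 at 25.7 ± 2.25. Complement members spanned from these down to Cfi at 0.10 ± 0.0366 FPKM. Tissue factor was the most abundant clotting member in Blank, and A2m the least at 0.0271 ± 0.0266 FPKM.

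In Model C3 led at 290.1 ± 123 FPKM, from a level of 21.2 ± 3.22 in Blank that was the sixth highest. C1qa at 183 ± 35.8, Serping1 at 177 ± 60.9 and C1qb at 155 ± 30.2 FPKM came next, and neighbours among these 4 overlapped. In CDs C3 was again highest at 249.7 ± 62.6 FPKM, overlapping with C1qa at 186 ± 30.9. C3 made up 7.06 to 9.70% of the summed FPKM of the complement members in Blank, 19.1 to 26.2% in Model and 20.4 to 22.0% in CDs. As a share of all counted reads, complement members took 0.0634 to 0.0741% in Blank, 0.262 to 0.491% in Model and 0.261 to 0.422% in CDs. Clotting members took 0.0368 to 0.0438%, 0.0791 to 0.180% and 0.0806 to 0.108%. In Model the clotting order was led by Plau at 41.2 ± 15.9 and F2r at 40.0 ± 7.05 FPKM, which overlapped with F3 at 36.2 ± 10.7. Serpine2 went from 2.15 ± 0.765 FPKM in Blank to 25.2 ± 19.9 in Model, and was at 5.88 ± 0.568 in CDs.

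**Figure D5:**
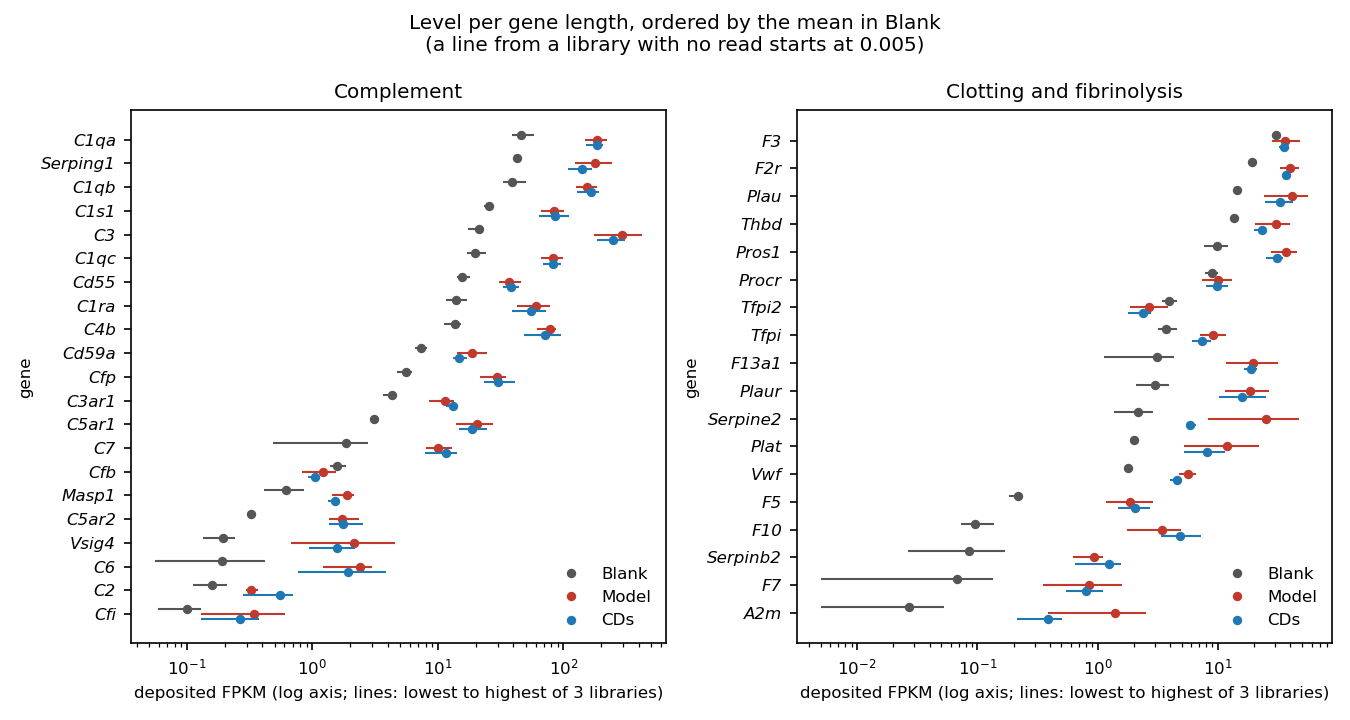
Deposited FPKM of each member on a log axis, ordered by the mean in Blank (points are group means, lines run from the lowest to the highest of 3 libraries, and a line from a library with no read starts at 0.005). C3 is the highest complement member in Model and CDs and not in Blank, and the low-level members F10, F7, Serpinb2 and A2m lie at the bottom in Blank.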

How the data were processed

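Colon RNA of 9 mice (3 in each of Blank, Model and CDs) was grouped by the sample titles. Per the labels' protocols, poly-A RNA was fragmented, copied with random primers and amplified by PCR, with no step that marks the strand. The tools named in the submitters' processing notes are HTSeq 0.9.1, HISAT2 2.1.0 and fastp 0.22.0. The sources used here do not give the genome build or the strand setting of the counting, so overlapping genes are uncertain. The authors deposited whole-number read counts and FPKM values per gene. The deposited FPKM equalled count over gene length and library total in 100% of values (relative tolerance 1e-06).

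Counts were tested in 1 fit of all 9 libraries with edgeR 4.0.16 (R 4.3.3; filterByExpr, TMM, quasi-likelihood F test, two-sided), adjusted by Benjamini and Hochberg over 14921 genes. SE is the log2 fold change over the square root of F, and 95% intervals use the test's degrees of freedom. Members and lists were chosen with earlier results of these data known. Values in every library are given for members called in Model against Blank with a log2 fold change of at least 2 in size, or with an unadjusted p under 0.05 in CDs against Model, and outside genes are named for the 3 highest and 3 lowest called fold changes of each list, apart from results that are not reported here. No list or set test was made. Alternatives were DESeq2 1.42.0, other scalings, no filter, only the 6 libraries compared, a replicate block, each library left out, and the organ-bearing libraries left out. Promoter windows end before the transcript start, since the bases after it are untranslated sequence, and windows holding an annotated exon (GENCODE, GRCm38) are not shown.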

Additional observations from a re-analysis of the deposited data

How the results depend on the processing

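Of the 33 members called in Model against Blank, none lost its call when 1 library was left out. Leaving out each library in turn gave 18 to 19 complement and 15 to 16 clotting calls in Model against Blank, 17 to 19 and 11 to 16 in CDs against Blank, and 0 in CDs against Model. With DESeq2, RLE size factors, library totals only, no expression filter or only the 6 libraries compared, Model against Blank had 18 complement and 14 to 15 clotting calls. Over the fits leaving out 1 library, the complement and clotting genes outside the members gave 11 to 14 and 8 to 13 calls in Model against Blank. In those fits all genes gave 4405 to 7459 calls in Model against Blank, 3398 to 5540 in CDs against Blank and 0 in CDs against Model. Without the prostate-bearing libraries, where Blank 1 stands alone, clotting calls in Model against Blank were 9, calls outside the members 7 (complement) and 4 (clotting), calls in CDs against Blank 11 (complement) and 4 (clotting), and calls over all genes 1536 and 465. Without the pancreas-bearing libraries CDs against Model had 2 complement, 6 clotting and 1241 calls over all genes. DESeq2 gave 1 clotting call (Serpine2) and 50 over all genes there. The causes were not tested. Fold changes near 0 changed sign: F3 in Model against Blank was -0.037 to 0.32 over the fits leaving out 1 library (lowest without Model 2, highest without Model 1), and Procr was -0.081 to 0.28 (the same libraries) and -0.057 without the prostate-bearing libraries. In CDs against Blank, Procr was -0.11 without the prostate-bearing and -0.072 without the pancreas-bearing libraries, and -0.071 to 0.18 over the fits leaving out 1 library (under 0 without Blank 3 or CDs 1). Scaling by library totals only raised the share of calls that were higher in CDs against Blank, over all genes, from 61.3% to 69.3%. F7 and Cfi have no value in Model against Blank in the fit of the 6 libraries compared, since they did not pass its filter.

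Whether replicate numbers pair the libraries was not tested. Same-number correlations of deviations from the group means ran from -0.37 to 0.21. Of these, 3 of 9 were over 0.1, and 4 of 9 libraries correlated best with one of their own number. With the replicate number as a block, 18 complement and 15 clotting members were called in Model against Blank, 19 and 15 in CDs against Blank, and none in CDs against Model (5672, 4475 and 0 over all genes), and the outside genes gave 12 and 9. Among the members the block changed 1 call, that of Serpine2 in CDs against Blank (adjusted p = 0.0377). Single libraries were not tested for standing apart from their group of 3. Low counts limit C2, C6, Cfi, Vsig4, F7, F10, A2m and Serpinb2 in Blank. These genes needed DSS-treated libraries to pass the filter, so a fall against Blank could hardly have been called for them.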

Other observations

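The fibrinogen chain genes Fga, Fgb and Fgg did not pass the filter on low counts and were chosen for mention after their values were seen. Fgb had 2, 0 and 1 reads in Blank, 4, 262 and 19 in Model and 7, 1 and 2 in CDs. Fga had 3, 98 and 3 reads in Model and Fgg 2, 64 and 0. Model 2 was the library with the most reads for all 3 chains. It was also the highest library for Serpine2, A2m, Plat and the summed neutrophil markers, while Alb was at 0.190 CPM in Model 2. Prothrombin (F2) and plasminogen (Plg) had 0 to 5 reads in every library.

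Ratios of levels per length were formed for 4 pairs of members. F3 over Tfpi was 6.75 to 9.60 in Blank, 3.66 to 4.17 in Model and 4.27 to 5.79 in CDs. Tfpi over Tfpi2 was 0.697 to 1.22 in Blank, 3.02 to 4.69 in Model and 2.18 to 4.90 in CDs. These 2 ratios did not overlap between Blank and the DSS-treated libraries. C1ra over C1s1 was 0.498 to 0.604 in Blank, 0.649 to 0.785 in Model and 0.602 to 0.658 in CDs, so CDs overlapped with Blank. C5ar1 over C5ar2 was 9.18 to 10.1 in Blank, 8.64 to 18.4 in Model and 9.63 to 12.8 in CDs, and its groups overlapped. The pairs were chosen with the fold changes known, and the ratios were not tested.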
